A study of Mus musculus with 15 samples.

Results

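The genes for the proteins of the cytosolic ribosome, the particle that translates messenger RNA outside mitochondria, were examined in MC38 tumours after injection of innate immune agonists. They were picked by symbol: every measured gene named Rpl or Rps followed by a digit, Rplp0 to Rplp2, and Rpsa. The 115 rows named as ribosomal protein pseudogenes and the 9 Rps6k kinase genes were left out. This gave 91 of the 17712 measured genes. They comprised 43 proteins of the large subunit, 31 of the small subunit and 3 of the stalk, which together are called the 77 core genes here. The other 14 were 13 paralogs, retrogenes or related copies (Rpl3l, Rpl6l, Rpl7l1, Rpl22l1, Rpl32l, Rpl36al, Rpl37rt, Rpl39l, Rps3a2, Rps3a3, Rps4l, Rps27l and Rps27rt) and Rps19bp1, which binds Rps19 and is no ribosomal protein. Fau, which encodes a small-subunit protein fused to a ubiquitin-like domain, fell outside the naming rule and is described with the translation factors.

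MC38, a mouse colon carcinoma line, was grown under the skin of the right flank of C57BL/6 mice, and tumours of about 5 mm received a single volume of 100 µL. Vehicle tumours (n = 3) received PBS holding DMSO and glucose, BO-112 tumours (n = 4) 50 µg of BO-112, a nanoplexed form of poly I:C that mimics double-stranded RNA, and DMXAA tumours (n = 4) 100 µg of DMXAA, an agonist of mouse STING. The remaining tumours (n = 4) received 50 µg of BO-112 with 100 µg of DMXAA, and all tumours were taken at 24 h. The labels call each sample a biological replicate, and a library is named below by its group and replicate number, as in DMXAA 2. The libraries held 12725316 to 19660511 reads. Levels are CPM, counts scaled to a common library size with 0.5 reads added to each count, and a log2 value is the logarithm of that level. Each library is whole tumour, so fewer cells of a type and less RNA per cell cannot be told apart. Of 5 epithelial markers listed as a check of the tumour label, 3 were measured (Epcam, Krt19 and Krt20), and their summed level was 0.579 to 2.94 CPM, close to 0.

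As background, ribosomal proteins coat the ribosomal RNA in nearly equal numbers, and their transcripts are short and among the most abundant in growing cells. Most of these transcripts begin with a run of pyrimidines, the 5′ terminal oligopyrimidine (TOP) tract, through which the kinase mTOR and the binding protein Larp1 control how fast they are translated. Because that control acts on translation, the amount of transcript measured here need not follow it. The transcription factor MYC raises ribosome production in many tumour cells, and some free ribosomal proteins, Rpl5 and Rpl11 above all, bind Mdm2 and so stabilise p53.

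Some of the annotated start sites have a short run of pyrimidines near them, which need not be the terminal tract itself. RefSeq promoters (GRCm38.p6) were matched by symbol for 57 of the 77 core genes, which had 67 promoters. The letters CTTTC on the transcribed strand lay within 15 bases before to 15 bases after the annotated start in 16 of the 67 (23.9%), against 4.05% of all 32851 promoters in a window of the same 30 bases. Its reverse complement GAAAG was present in 4.48% and 3.60%. Below are windows of 30 bases around the start of 6 core genes that hold the letters, of the retrogene Rps27rt beside its parent Rps27, and of the paralog Rpl7l1, which does not hold them. CTTTC is in capitals, and the last 15 bases of each are the start of the annotated transcript.
Rplp2: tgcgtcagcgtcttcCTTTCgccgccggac
Rpl38: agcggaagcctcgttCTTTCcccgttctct
Rpl7a: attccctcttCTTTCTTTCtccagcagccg
Rpl35: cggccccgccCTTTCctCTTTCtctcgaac
Rpl13a: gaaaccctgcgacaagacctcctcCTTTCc
Rps27: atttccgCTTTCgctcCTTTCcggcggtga
Rps27rt: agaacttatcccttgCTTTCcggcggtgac
Rpl7l1: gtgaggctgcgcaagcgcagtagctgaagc

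These windows lie at chr7:141447636-141447665 (plus strand) for Rplp2, chr11:114668565-114668594 (plus strand) for Rpl38, chr2:26910792-26910821 (plus strand) for Rpl7a and chr2:39005117-39005146 (minus strand) for Rpl35. The others lie at chr7:45128731-45128760 (minus strand) for Rpl13a, chr3:90213634-90213663 (minus strand) for Rps27, chr9:114982725-114982754 (minus strand) for Rps27rt and chr17:46782642-46782671 (minus strand) for Rpl7l1. In Rplp2, Rpl38 and Rps27rt the capitals begin at the annotated first base of the transcript. Rps27 and its retrogene share the letters that follow it. In a wider window, 50 bases to either side of the start and on both strands, CTTCCG or its reverse complement CGGAAG was found in 34.3% of the 67 promoters and in 9.12% of all. The letters of these motifs were counted separately, so a promoter can hold both. A match is a description of the letters and no evidence of binding.

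Transcript levels differed widely among the genes when set per kilobase of transcript. The core genes of the small subunit had a median level of 901 CPM per kilobase and those of the large subunit 683. The highest were Rps12, a small-subunit protein, with a mean over 15 libraries of 2574 CPM per kilobase, Rplp1 of the stalk with 2156, and Rpl8, near the peptidyl transferase centre, with 1866. The stalk is the flexible arm of the large subunit that recruits elongation factors, and its base protein Rplp0 stood at 1727 and Rplp2, the partner of Rplp1, at 683 CPM per kilobase. Rpsa, a small-subunit protein also known as the laminin receptor, stood at 1018. At the low end were the paralogs Rpl3l (0.380), Rpl39l (0.468) and Rpl36al (0.662). Only 3 core genes lay under 100 CPM on average, namely Rpl24 with 3.74 CPM per kilobase, Rps10 with 9.84 and Rpl13a with 33.5, and the next lowest was Rps15a with 112. The low values of these 3 are uncertain, because 72.5%, 44.2% and 52.7% of the 150-base windows of their transcripts occur unchanged in transcripts of other annotated genes, and how the authors counted such reads is not given in the sources used here. Sharing of that kind was common, however, with a median of 19.4% over the 91 genes, and Rps12, the highest of all, shared 79.3% of its windows.

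Ribosomal protein transcripts were most abundant in DMXAA 2 and DMXAA 3. The 91 genes took 5.26%, 5.84 and 6.50 of the reads in the vehicle libraries, 4.88%, 4.66, 5.17 and 5.21 with BO-112, 4.70%, 12.9, 7.98 and 5.06 with DMXAA, and 5.46%, 5.18, 5.88 and 4.71 with both agents. DMXAA 2 and DMXAA 3 lay above all other libraries, while DMXAA 1 and DMXAA 4 lay within the range of the BO-112 libraries. The group means were 5.87% ± 0.622 (SD, n = 3), 4.98% ± 0.260 (SD, n = 4), 7.66% ± 3.79 (SD, n = 4) and 5.31% ± 0.494 (SD, n = 4). At this depth the 95% Wilson interval of each share was narrow, 12.88 to 12.91% in DMXAA 2, and covers counting error only. Leaving out those libraries, the share ranged over 4.66 to 6.50% in the other 13.

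**Figure D1:**
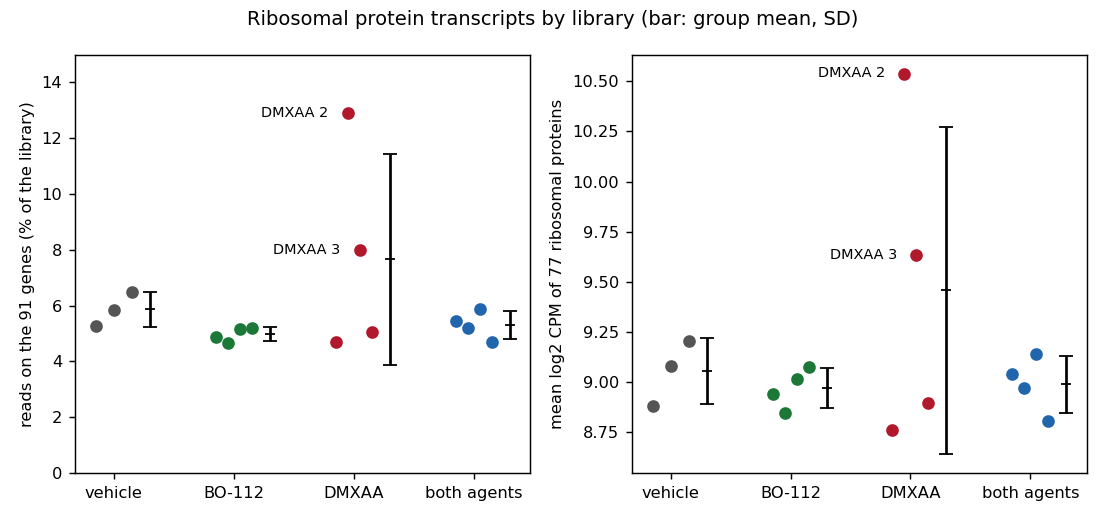
Share of reads on the 91 genes (left, % of the library) and mean log2 CPM of the 77 core genes (right) in each of the 15 libraries, by group, with the group mean and SD beside the points. DMXAA 2 and DMXAA 3 stand above the other 13 libraries, and the DMXAA group has the widest SD.

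The shift in these libraries ran through nearly the whole family. Of the 77 core genes, 76 were highest in DMXAA 2 and 74 were second highest in DMXAA 3, and the exception to the first count was Rpl4, highest in DMXAA 3. Against the mean of DMXAA 1 and DMXAA 4, the core genes stood at a median log2 difference of 1.77 in DMXAA 2 (range 0.34 to 2.74), which is 3.42-fold. In DMXAA 3 the median was 0.83 (range 0.26 to 1.11), or 1.78-fold. These differences are between single libraries and carry no test. Rplp2 is an example, at 484, 582 and 679 CPM with vehicle, 425, 448, 469 and 519 with BO-112, 449.7, 2509.8, 898 and 475 with DMXAA, and 522, 459, 538 and 424 with both agents. Its values in DMXAA 1 and DMXAA 4 lay within the range of the BO-112 libraries, and DMXAA 2 lay far above every other library. Rps12 was also highest in DMXAA 2 and next in DMXAA 3, at 1215, 1352 and 1590.0 CPM with vehicle, 1170.3, 1139, 1218 and 1280.2 with BO-112, 904, 4864, 1874 and 1063 with DMXAA, and 1265, 1218, 1354 and 1037 with both agents. In DMXAA 1 it was lower than in every other library, and in DMXAA 4 lower than in every vehicle or BO-112 library.

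**Figure D2:**
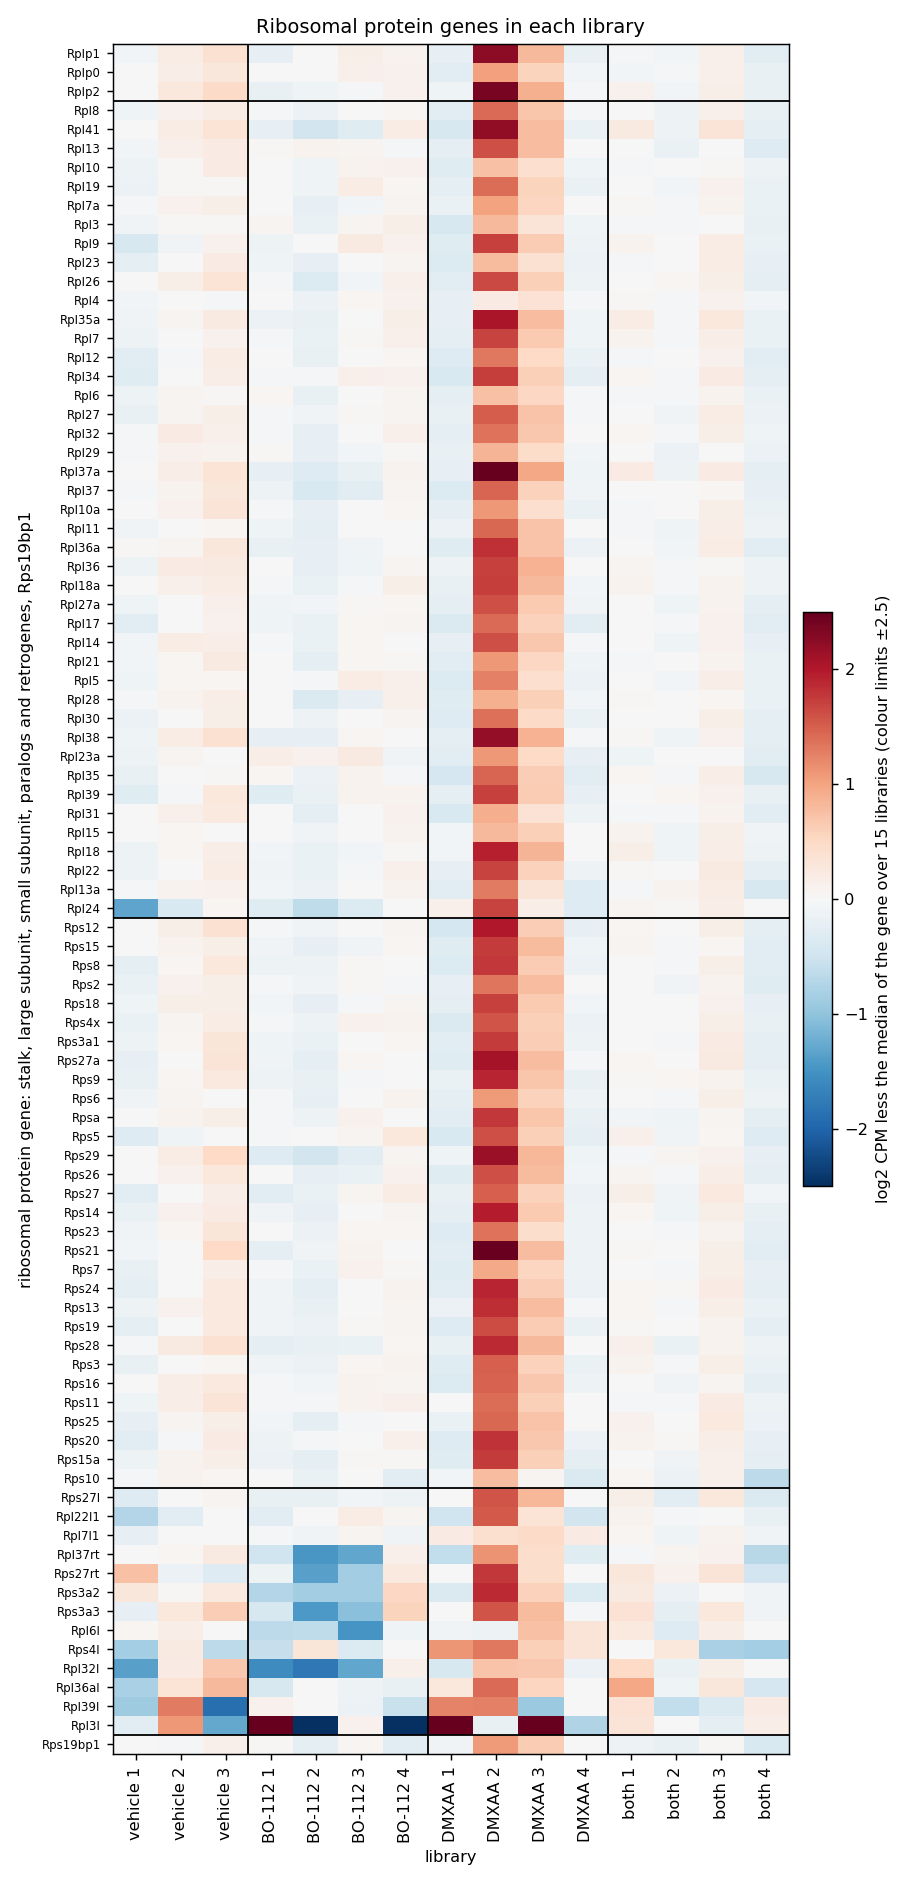
Log2 CPM of the ribosomal protein genes (rows, 1 of the 91 not shown, by role and then by level per kilobase) in each of the 15 libraries (columns), less the median of that gene over the libraries, with red above and blue below and the colour limits at ±2.5. The core genes are red in DMXAA 2 and paler red in DMXAA 3, and several of the copies at the bottom are blue in BO-112 2 and BO-112 3.

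In DMXAA 2 the median size of the shift differed by role, but the ranges overlapped. The median difference was 1.93 for the small subunit (range 0.99 to 2.66) and 1.63 for the large subunit (range 0.34 to 2.74). In DMXAA 3 the medians were 0.87 and 0.78. The mean log2 CPM of the small-subunit genes exceeded that of the large-subunit genes by 0.41 in DMXAA 2, against 0.14 to 0.23 in the other 14 libraries. Within the stalk, the acidic tip proteins Rplp1 and Rplp2 differed by 2.43 and 2.44 and the base protein Rplp0 by 1.20. Rplp1 was at 792, 937 and 1075 CPM with vehicle, 714, 828, 912 and 879 with BO-112, 716, 3899.9, 1457 and 733 with DMXAA, and 811, 794, 909.5 and 684 with both agents. Rplp0 was at 2109, 2351 and 2554 CPM with vehicle, 2093, 2086, 2298 and 2258 with BO-112, 1746, 4306, 3109 and 2021 with DMXAA, and 2021, 2060.2, 2318 and 1843 with both agents. The tip protein thus stood further above the other DMXAA tumours than its base, in DMXAA 2. Rpsa was at 1676, 1777 and 1849 CPM with vehicle, 1636, 1544, 1815 and 1677 with BO-112, 1378, 5701, 2721 and 1480.4 with DMXAA, and 1596, 1566, 1749.8 and 1422 with both agents, again with DMXAA 2 and DMXAA 3 on top. The largest differences were those of Rpl37a (2.74), Rps21 (2.66) and Rpl41 (2.51), which encode small proteins, and the smallest that of Rpl4 (0.34), a long protein of the large subunit. Rpl37a, Rps21, Rpl41 and Rpl4 were chosen after their values were seen. Across the 77 core genes the difference in DMXAA 2 had a Pearson r of -0.29 and a Spearman rho of -0.35 with transcript length, given as a description over genes that share 1 library.

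Transcript length moved with the same libraries outside the family as well. Other genes with transcripts under 1000 bases and a mean above 1 CPM had a median log2 difference from the mean of the other 14 libraries of 1.16 in DMXAA 2 and 0.51 in DMXAA 3. For transcripts above 5000 bases the medians were -0.59 and -0.35. The 91 genes had a median transcript length of 860 bases, against 2656 over all genes with a length. Set against the mean of DMXAA 1 and DMXAA 4, as for the core genes above, and among genes with a mean log2 CPM above 6 and a length of 500 to 750 bases, 17 core genes had a median difference of 1.93 in DMXAA 2 and 57 other genes 1.38. At 1000 to 1500 bases the medians were 1.54 for 16 core genes and 0.97 for 223 other genes, and at 1500 to 3000 bases 1.73 for 9 and 0.34 for 1109. After a trend on length was removed from every library, the mean log2 CPM of the core genes was 9.85 and 9.29 in DMXAA 2 and DMXAA 3, against 8.77 to 9.19 elsewhere. Before that adjustment the values were 10.54 and 9.63 against 8.76 to 9.21. In DMXAA 2 the core genes stood higher than other genes of their length in every class from 500 bases up, and below 500 bases the medians were 2.05 for 9 core genes and 2.16 for 5 others.

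**Figure D3:**
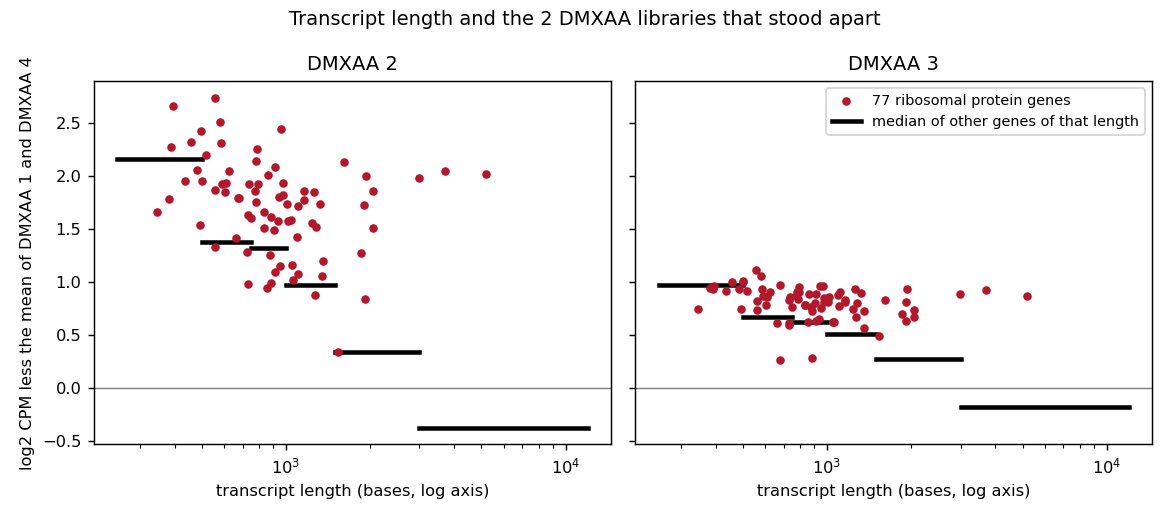
Log2 CPM in DMXAA 2 (left) and DMXAA 3 (right) less the mean of DMXAA 1 and DMXAA 4, against transcript length in bases on a log axis, for the 77 core genes (points) and as the median of other genes in each length class with a mean log2 CPM above 6 (bars). The bars fall with length, and most core genes above 1000 bases lie above the bar for their length.

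Other lists were set beside these libraries. The 25 measured oxidative phosphorylation genes with short nuclear transcripts had a mean log2 CPM of 7.41 and 6.37 in DMXAA 2 and DMXAA 3, with 5.38 to 5.90 in the other 13. The mean log2 CPM of the 7 macrophage markers was 8.74 in DMXAA 2, above all others, and 8.41 in DMXAA 3, within the range of the other 13 (7.91 to 8.66), while their summed level was 5480.0 and 3587 CPM, against 2516 to 3276. The 7 neutrophil markers summed to 37.2 and 52.6 CPM, against 144 to 145 in DMXAA 1 and DMXAA 4. For the 8 T cell markers the sums were 135 and 89.2 CPM, with 131 and 72.2 in the other DMXAA tumours, and the 4 measured B cell markers stayed at 1.92 to 7.87 CPM in all 15. The 8 skeletal muscle markers were high in DMXAA 3 (414 CPM) and DMXAA 1 (649), but not in DMXAA 2 (7.32). The part of transcript length, of these cell types and of muscle in the ribosomal protein levels was not tested.

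Against vehicle, no ribosomal protein gene passed an adjusted p of 0.05 in any treated group. With BO-112, 0 of 91 passed by limma, where 11.9% of all 17712 genes did. An unadjusted p under 0.05 was seen for 2, against 26.2% of all genes. The median log2 fold change was -0.096 (all genes -0.039), and 73 of the 91 were negative. The smallest adjusted p was that of Rpl6l, a copy of the large-subunit gene Rpl6, with -0.79 ± 0.29 (SE, limma adjusted p = 0.0891). With DMXAA, 0 of 91 passed, against 1.25% of all genes, and 4 had an unadjusted p under 0.05 (18.1% of all genes). Every one of the 91 was positive in sign and the median was 0.43 (all genes 0.014), with the smallest adjusted p for the Rpl7 paralog Rpl7l1, at 0.40 ± 0.10 (SE, limma adjusted p = 0.0741). With both agents, 0 of 91 passed, against 2.67% of all genes, and 0 had an unadjusted p under 0.05 (11.5% of all genes). The median there was -0.070 (all genes -0.0073), and the smallest adjusted p was that of Rpl24, 0.61 ± 0.40 (SE, limma adjusted p = 0.692). Rpl24 stood at 0.961, 1.85 and 2.46 CPM with vehicle, 1.95, 1.53, 1.90 and 2.39 with BO-112, 2.60, 7.74, 2.67 and 1.92 with DMXAA, and 2.51, 2.43, 2.67 and 2.38 with both agents. The vehicle values overlapped those of BO-112 and of both agents. Leaving out BO-112 4 gave 1 call with BO-112 (9.10% of all genes). With DMXAA, leaving out vehicle 2 gave 1 (1.54% of all genes) and leaving out DMXAA 4 gave 1 (2.12%). On the recovered reads limma-voom likewise passed 0 members with BO-112, DMXAA or both agents, where 11.8%, 0.525% and 2.13% of all genes passed. The members' SE was wide, with a median of 0.32 on the log2 scale against 0.24 over all genes.

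Leaving out DMXAA 2 and DMXAA 3 turned the sign of the DMXAA comparison. These libraries were picked by the members' own levels, so lower DMXAA levels and a smaller spread without them follow from that choice. Here and below, fits without them only describe how far the results rest on these libraries. Without DMXAA 2 alone the median of the 91 genes against vehicle was 0.051, with 68 positive, and without DMXAA 1 or DMXAA 4 alone it was 0.66 or 0.62. Without DMXAA 2 and DMXAA 3 together, with 2 DMXAA tumours left, the median of the 91 genes against vehicle was -0.22, with 83 negative, in place of 0.43 with 91 positive, and 0 passed, against 2.11% of all genes. The lowest p was then that of Rps12, -0.49 ± 0.13 (SE, limma adjusted p = 0.0717), and 24 of the 91 had an unadjusted p under 0.05. The median SE of the members in that comparison fell to 0.13, and that of all genes was 0.19. By role, the medians went from 0.45 to -0.22 for the small subunit, from 0.39 to -0.23 for the large subunit and from 0.50 to -0.32 for the stalk. Without those 2 libraries, 3 members passed in BO-112 against vehicle, where 25.1% of all genes did. They were the small-subunit proteins Rps29, -0.48 ± 0.13 (SE, limma adjusted p = 0.0160), and Rps28, -0.32 ± 0.11 (SE, limma adjusted p = 0.0475), and the copy Rpl6l, -0.79 ± 0.26 (SE, limma adjusted p = 0.0380). Rps29 was at 299, 339 and 424 CPM with vehicle, 238, 216, 246 and 315 with BO-112, 278, 1340.2, 528 and 277 with DMXAA, and 294, 312, 323 and 258 with both agents. Of the BO-112 libraries, BO-112 4 lay inside the vehicle range and the other 3 below it. Neither group lost a library in that comparison, and the estimates did not change. For both agents against vehicle 0 members passed without those libraries, against 5.67% of all genes. The SE of Rps29 in BO-112 against vehicle went from 0.39 to 0.13.

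**Figure D4:**
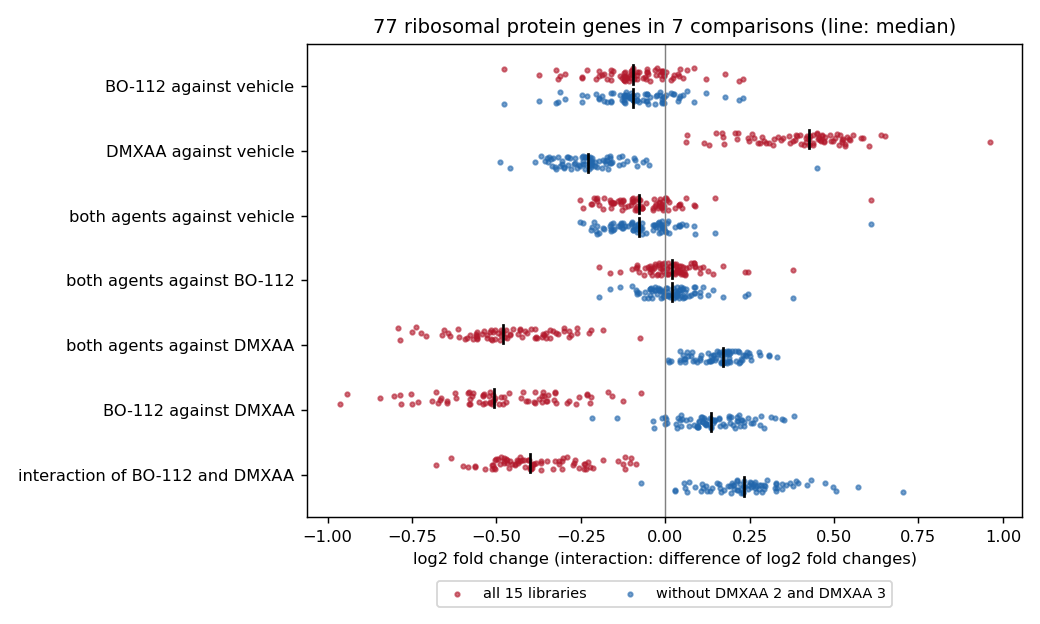
Log2 fold change of each of the 77 core genes (points) and their median (line) in the 6 comparisons and the interaction, from all 15 libraries (red) and without DMXAA 2 and DMXAA 3 (blue). In the 4 rows that involve DMXAA alone the 2 clouds lie mostly on opposite sides of 0, and in the other 3 they coincide.

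Between the treated groups, 3 of the 91 genes were called, all lower with BO-112 than with DMXAA. In that comparison 21.4% of all genes passed, so the members' share was far below the background. All 91 had a negative sign and the median was -0.52 (all genes -0.047). The called genes were the Rpl7 paralog Rpl7l1, -0.35 ± 0.094 (SE, limma adjusted p = 0.0185), the Rpl6 copy Rpl6l, -0.92 ± 0.26 (SE, limma adjusted p = 0.0262), and the Rps4x copy Rps4l, -0.9998 ± 0.33 (SE, limma adjusted p = 0.0414). No core gene was among them. Leaving out DMXAA 3 left 0 calls (10.6% of all genes), leaving out BO-112 1 left 1 (12.03%) and leaving out BO-112 3 left 1 (14.6%). With DMXAA 1 left out 45 members passed, against 33.3% of all genes, with DMXAA 4 left out 21, against 32.4%, and with BO-112 4 left out 5, against 12.9%. Without the 4 libraries high in muscle transcripts 0 passed, against 4.47%. A fit to these groups alone also passed 0 members. The share over all genes in that fit is not given here, so its 0 is not read as a result about the members. Without DMXAA 2 and DMXAA 3 together the median was 0.12 and 1 member passed, the large-subunit protein Rpl23a, which was higher with BO-112, by 0.35 ± 0.10 (SE, limma adjusted p = 0.0433), against 10.9% of all genes. Rpl23a was at 234, 268 and 255 CPM with vehicle, 287, 276, 297 and 241 with BO-112, 211, 542, 359 and 221 with DMXAA, and 238, 258, 253 and 212 with both agents. All 4 BO-112 values lay above DMXAA 1 and DMXAA 4 and below DMXAA 2 and DMXAA 3.

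Adding one agent to the other passed no ribosomal protein gene. For both agents against BO-112 the members' median was 0.026 and 0 of 91 passed, as did 0% of all 17712 genes. Of the members, 2 had an unadjusted p under 0.05 (9.54% of all genes), and limma-voom passed 0. Rpl6l had the smallest adjusted p among them, 0.74 ± 0.26 (SE, limma adjusted p = 0.385). For both agents against DMXAA the median was -0.48 and all 91 were negative, while 0 passed, against 0.886% of all genes. Of the members, 7 had an unadjusted p under 0.05 (23.9% of all genes), and limma-voom passed 0. The smallest adjusted p there was that of Rps4l, -1.19 ± 0.33 (SE, limma adjusted p = 0.0864). Without DMXAA 2 and DMXAA 3 the median became 0.16, with 84 positive and 0 passed, against 0.0395% of all genes. For both agents against BO-112, 0 members passed without them, against 1.16%. Without DMXAA 1 alone 4 members passed, against 9.96% of all genes, and without DMXAA 4 alone 3, against 8.49%. The interaction sets the effect of DMXAA in tumours given BO-112 against its effect without BO-112. It had 0 of 91 past the threshold, against 1.35% of all genes. At an unadjusted p under 0.05 it had 2 members, against 14.7% of all genes, and 0 passed by limma-voom. Its median was -0.40 with all libraries and 0.23 without those 2 (0 passed, against 4.01% of all genes), and the smallest adjusted p was 0.170, for Rps4l. Without DMXAA 2 alone the median was -0.099 for both agents against DMXAA, -0.15 for BO-112 against DMXAA and -0.025 for the interaction. Several of these comparisons share the DMXAA group or the vehicle group, so their medians are not independent of each other. The limma-voom shares over all genes are not given here for these comparisons. The limma-voom counts of 0 are therefore not read as results about the members.

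The paralogs and copies did not all follow the core genes. Rpl7l1, which acts in the assembly of the large subunit, stood at 93.0, 107 and 108 CPM with vehicle, 106, 101, 114 and 102 with BO-112, 125, 143, 149 and 124 with DMXAA, and 111, 100.2, 115 and 101 with both agents. All 4 DMXAA tumours lay above all 11 others, DMXAA 1 and DMXAA 4 included, and its difference from vehicle was 0.40 ± 0.10 (SE, limma adjusted p = 0.0741). Without DMXAA 2 and DMXAA 3 that difference was 0.28 ± 0.094 (SE, limma adjusted p = 0.172), again short of the threshold. Rps4l was at 2.17, 4.57 and 2.46 CPM with vehicle, 2.60, 4.78, 3.09 and 3.86 with BO-112, 8.41, 9.77, 5.92 and 4.88 with DMXAA, and 3.90, 4.70, 2.23 and 2.17 with both agents. Each DMXAA value was above every other library's, by a narrow margin for DMXAA 4. Rps27l, a paralog of Rps27 that p53 induces, had 55.3, 68.8 and 72.4 CPM with vehicle, 60.4, 60.9, 65.8 and 62.7 with BO-112, 68.8, 203, 122 and 69.1 with DMXAA, and 76.6, 56.8, 82.1 and 53.7 with both agents, highest in DMXAA 2 and DMXAA 3 like the core genes. Its smallest adjusted p was for BO-112 against DMXAA, -0.74 ± 0.27 (SE, limma adjusted p = 0.0627). Rpl22l1, the paralog of Rpl22, had 15.6, 21.3 and 25.9 CPM with vehicle, 21.1, 26.1, 29.2 and 27.1 with BO-112, 18.4, 74.5, 32.7 and 18.6 with DMXAA, and 27.5, 25.1, 25.8 and 22.8 with both agents. Relative to its partner Rpl22 it stood at a log2 difference of -3.51 ± 0.20 (SD, n = 4) with BO-112 and -3.89 ± 0.22 (SD, n = 3) with vehicle. The partners Rpl22, Rps27, Rpl7 and Rps4x had vehicle means of 305 ± 33.5, 269 ± 38.1, 922 ± 76.7 and 1198 ± 144 CPM (SD, n = 3) and BO-112 means of 293 ± 24.5, 266 ± 38.3, 920.0 ± 76.8 and 1175 ± 87.5 CPM (SD, n = 4).

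Rpl3l, the form of Rpl3 that striated muscle uses, was highest in libraries that held muscle transcripts. It had 2, 7 and 1 reads in the vehicle libraries, 24, 0, 3 and 0 with BO-112, 62, 2, 18 and 2 with DMXAA and 3, 3, 2 and 3 with both agents. The highest 4 were DMXAA 1, BO-112 1, DMXAA 3 and vehicle 2. The same 4 libraries held the muscle actin Acta1 at 291, 163, 194 and 58.0 CPM, and the other 11 at no more than 5.60. Over the 15 libraries the log2 values of Rpl3l and Acta1 had a Pearson r of 0.74 and a Spearman rho of 0.48, and without DMXAA 1 and DMXAA 3 an r of 0.54 and a rho of 0.20, given as a description because the libraries fall into those with muscle and those without. Its partner Rpl3 stood at 1431, 1547 and 1545 CPM with vehicle, 1586, 1359, 1588 and 1692 with BO-112, 1152, 2661, 1893 and 1415 with DMXAA, and 1479.6, 1472, 1519 and 1329 with both agents. Rpl39l, a form best known from the testis, had 2, 13 and 1 reads with vehicle, 6, 5, 4 and 3 with BO-112, 16, 10, 2 and 6 with DMXAA and 5, 3, 3 and 5 with both agents, so that no difference was detectable at this depth. Rpl36al was measured at 0.391 to 1.85 CPM, and its partner Rpl36a at 217 to 952. Rpl10l had no row among the 17712 genes.

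Rpl6l and several other copies had their lowest values in the BO-112 group. Rpl6l was at 4.66, 5.05 and 4.54 CPM with vehicle, 2.88, 2.91, 1.63 and 4.18 with BO-112, 4.26, 4.11, 7.45 and 5.65 with DMXAA, and 5.36, 3.59, 5.08 and 4.51 with both agents. The BO-112 libraries all lay below vehicle, lowest in BO-112 3, and those of both agents lay on either side of the vehicle values. The retrogene Rpl37rt had 13.1, 13.7 and 15.3 CPM with vehicle, 9.35, 4.78, 5.35 and 14.3 with BO-112, 8.55, 28.5, 17.8 and 10.7 with DMXAA, and 12.6, 13.8, 14.1 and 8.09 with both agents. In BO-112 2 and BO-112 3 it was at 4.78 and 5.35 CPM, lower than anywhere else. Rps3a2 had its lowest values, 2.61 and 2.63, in those 2 libraries, as did Rps3a3 with 1.35 and 1.76 and Rps27rt with 1.11 and 1.56. In BO-112 against vehicle Rpl37rt had -0.87 ± 0.40 (SE, limma adjusted p = 0.182), Rps3a2 -0.67 ± 0.45 (adjusted p = 0.383) and Rpl32l -0.97 ± 0.51 (adjusted p = 0.249). Rpl37rt, Rps3a2, Rps3a3 and Rps27rt were chosen for description after their values were seen. Beside these copies, all 1058 processed pseudogenes of the annotation had a median log2 difference of -0.76 between the mean of BO-112 2 and BO-112 3 and the mean of BO-112 1 and BO-112 4, and the 115 ribosomal protein pseudogenes -0.92. For the 77 core genes it was -0.072 and for protein-coding genes 0.023. The part of that library pattern in the values of Rpl6l and the other copies was not tested. Reads of such copies cannot be assigned with certainty, since Rps27rt shares 87.1% of its 150-base windows with other genes, Rps3a2 60.5% and Rpl6l 47.6%.

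**Figure D5:**
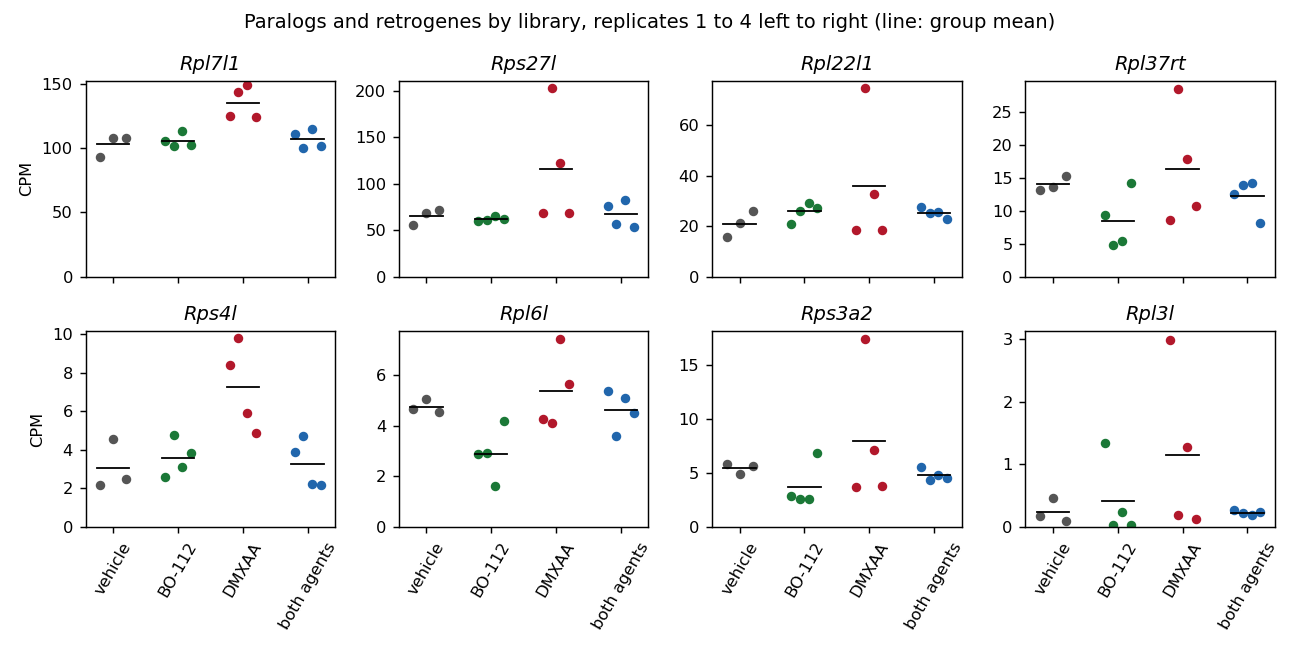
CPM of 8 paralogs and copies in each of the 15 libraries, by group, with replicates in numerical order from left to right, the group mean as a line and each axis starting at 0. Rpl7l1 and Rps4l are highest in the 4 DMXAA tumours, Rpl37rt is lowest in BO-112 2 and BO-112 3, and Rpl3l is highest in DMXAA 1, BO-112 1 and DMXAA 3.

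Ribosomal proteins with roles outside the ribosome showed the pattern of the family. Rpl5, which with Rpl11 forms the particle that binds Mdm2, was at 895, 999.7 and 1004 CPM with vehicle, 961, 937, 1097 and 1054 with BO-112, 762, 2320.2, 1293 and 868 with DMXAA, and 965, 926, 1077 and 857 with both agents. Rpl11 was at 465, 498 and 510.2 CPM with vehicle, 459.8, 425, 494 and 499.8 with BO-112, 449, 1340.0, 809 and 496 with DMXAA, and 486, 459.9, 551 and 454 with both agents. For both, DMXAA 2 and DMXAA 3 were the highest, and DMXAA 1 and DMXAA 4 lay below or among the vehicle values. Against vehicle, Rpl5 had 0.066 ± 0.27 (SE, limma adjusted p = 0.917) with BO-112 and 0.30 ± 0.27 (adjusted p = 0.524) with DMXAA, and Rpl11 had -0.067 ± 0.27 (adjusted p = 0.915) and 0.51 ± 0.27 (adjusted p = 0.311). Rpl26, which binds the p53 transcript, had 614 ± 77.3 CPM with vehicle (SD, n = 3), 523 ± 68.3 with BO-112, 877 ± 587 with DMXAA and 548 ± 58.2 with both agents (SD, n = 4 each). Its SD in the DMXAA group was several times that in any other group. Rpl13a, known for the silencing of inflammatory transcripts after interferon gamma, was at 31.1, 34.3 and 34.7 CPM with vehicle, 30.8, 29.3, 32.3 and 34.2 with BO-112, 26.8, 79.3, 40.4 and 25.9 with DMXAA, and 31.4, 34.2, 36.7 and 24.6 with both agents, with -0.078 ± 0.28 (SE, limma adjusted p = 0.904) for BO-112 against vehicle. Rps3, a small-subunit protein with a part in DNA repair and NF-kB signalling, had 934 ± 80.7, 951 ± 74.5, 1447 ± 893 and 968 ± 91.1 CPM in the same order of groups. Here too the SD with DMXAA was the widest of the 4 groups. Rps6, the small-subunit protein phosphorylated downstream of mTOR, had 864 ± 46.9, 849 ± 72.9, 1165 ± 508 and 865 ± 73.0. Rps19, mutated in Diamond-Blackfan anaemia, had 448 ± 72.3, 431 ± 31.2, 698 ± 465 and 434 ± 40.4, and Rps27a, a fusion with ubiquitin, had 806 ± 146, 744 ± 62.8, 1497 ± 1229 and 787 ± 100.3. None of these 8 genes passed the threshold in any of the 7 tests.

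The genes varied together over the libraries. Of the 91, 75 had a Pearson r of at least 0.9 between their log2 CPM and the mean of the others over 15 libraries, and 73 of these were core genes. The closest were Rps13 (0.997) and Rps18 (0.994), both small-subunit proteins. The lowest were Rpl3l (0.034), Rpl39l (0.18), Rpl6l (0.24), Rps4l (0.52) and Rpl32l (0.56), which are all paralogs or copies. Over the 13 libraries without DMXAA 2 and DMXAA 3 the median r of the core genes was 0.84, from 0.21 for Rpl23a to 0.97 for Rps13. Outside the family, Cox4i1 (0.993), Naca (0.990), Snrpd2 (0.989), Cox7a2 (0.989) and Mtch2 (0.989) were most like the mean of the members over 15 libraries by Pearson r, among 13676 named protein-coding genes. Cox4i1 is a subunit of cytochrome c oxidase and Naca a subunit of the complex that binds nascent chains at the ribosome. Over 15 libraries 415 of these genes had an r above 0.95, and over 13 libraries 0. Over those 13 the closest were Cox4i1 (0.933), Inip (0.924), Cops9 (0.905), Bloc1s2 (0.893) and Atp5h (0.889). The likeness is a description over libraries that share depth and scaling.

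Against vehicle, translation factors and other genes with TOP transcripts had smaller median differences than the members. The members' medians were -0.096, 0.43 and -0.070 with BO-112, DMXAA and both agents. Beside their median SE of 0.32 the gaps with BO-112 and with both agents were small. Of the 29 translation factor and other TOP genes measured, 0 passed against vehicle with BO-112, DMXAA or both agents. The medians of this list were -0.021, 0.22 and -0.052 (all genes -0.039, 0.014 and -0.0073). The smallest p for BO-112 belonged to the RNA-binding protein Ybx1, -0.27 ± 0.12 (SE, limma adjusted p = 0.190), and the intermediate filament protein Vim, -0.25 ± 0.13 (adjusted p = 0.246). Both were lower with BO-112 than with DMXAA, at -0.38 ± 0.12 for Vim and -0.35 ± 0.12 for Ybx1. They were the only 2 of the list to pass there, where 21.4% of all genes did. Fau, the small-subunit protein outside the naming rule, was at 501, 559.6 and 584 CPM with vehicle, 510.3, 512, 574 and 613 with BO-112, 471, 2113, 929 and 515 with DMXAA, and 588, 498, 571 and 488 with both agents, with DMXAA 2 and DMXAA 3 highest as for the members. The elongation factor Eef1a1, which delivers transfer RNA to the ribosome, had 6788, 7198 and 6803 CPM with vehicle, 6976, 6352, 7354 and 7570.4 with BO-112, 5264, 7867, 7673 and 5936 with DMXAA, and 6418, 6814, 6865 and 6343 with both agents. Its values in DMXAA 2 and DMXAA 3 were above all others by a small margin. Fau and Eef1a1 were added after their values were seen.

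Genes that build ribosomes or set their number were counted from lists in the same way. Of 36 ribosome biogenesis genes, 0 passed against vehicle in any treated group, with medians of 0.027 for BO-112, 0.15 for DMXAA and -0.036 for both agents. For BO-112 against DMXAA, where 21.4% of all genes passed, 1 was higher and 4 were lower, namely Bop1, a factor of large-subunit assembly, -0.53 ± 0.12 (SE, limma adjusted p = 0.00810), and Fbl, Nhp2 and Bysl, while the gene that was higher was Sdad1, a factor of ribosome maturation, 0.50 ± 0.11 (SE, limma adjusted p = 0.00814). Of 25 genes of MYC and mTOR control, 1 rose and 3 fell with BO-112 against vehicle, where 11.9% of all genes passed. The kinase gene Rps6ka1, which encodes RSK1, fell by 0.75 ± 0.12 (SE, limma adjusted p = 7.58e-04) and the MYC antagonist Mxd4 fell by 1.06 ± 0.19 (adjusted p = 0.00150). Mxd1, another MYC antagonist, rose by 2.83 ± 0.50 (limma adjusted p = 0.00155), and the translation repressor Eif4ebp2 fell by 0.52 ± 0.16 (limma adjusted p = 0.0462). Myc itself had 0.32 ± 0.15 (SE, limma adjusted p = 0.185). In the same list 0 passed for DMXAA or for both agents against vehicle. For BO-112 against DMXAA 6 were higher and 3 lower, against 21.4% of all genes. Of 25 oxidative phosphorylation genes 0 passed against vehicle in any group, with medians of -0.31, 0.52 and -0.15 for BO-112, DMXAA and both agents. Lower with BO-112 than with DMXAA were 7, against the same 21.4% of all genes. The mean log2 CPM of the list was 7.41 and 6.37 in DMXAA 2 and DMXAA 3. In DMXAA 1 and DMXAA 4 it was 5.56 and 5.55, beside 5.38 to 5.51 with BO-112. Mxd1, Eif4ebp2, Fbl, Nhp2 and Bysl were named after their values were seen.

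Genes of ribosome-bound quality control and stress had calls against vehicle with BO-112 and with both agents. Of 20 measured, 6 rose with BO-112, 0 passed with DMXAA and 2 rose with both agents, where 11.9%, 1.25% and 2.67% of all genes passed. For BO-112 against DMXAA 10 were higher, against 21.4% of all genes, and for both agents against DMXAA 2, against 0.886%. Cdkn1a, a p53 target that halts the cell cycle, stood at 71.7, 64.9 and 68.6 CPM with vehicle, 183, 198, 168 and 195 with BO-112, 119, 75.4, 99.7 and 121 with DMXAA, and 135, 134, 135 and 123 with both agents. Every treated library was above every vehicle library, and the BO-112 group was highest. It rose by 1.44 ± 0.14 with BO-112 (SE, limma adjusted p = 7.88e-06) and by 0.95 ± 0.14 with both agents (adjusted p = 0.00110), and stood at 0.58 ± 0.14 (adjusted p = 0.0554) with DMXAA. Mdm2, the p53 ligase that Rpl5 and Rpl11 bind and also a p53 target, had 96.3, 107 and 90.5 CPM with vehicle, 236, 228, 219 and 236 with BO-112, 125, 80.3, 91.2 and 126 with DMXAA, and 181, 171, 144 and 162 with both agents. It rose by 1.23 ± 0.15 with BO-112 (limma adjusted p = 5.88e-05) and by 0.74 ± 0.15 with both agents (adjusted p = 0.0104). The lists were chosen with earlier results of these data known, so their counts are no independent evidence of a direction. The transcripts of Rpl5 and Rpl11 did not pass in either comparison, and nothing here measures the free proteins.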

How the data were processed

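RNA from 15 tumours was sequenced as stranded mRNA libraries. The authors deposited log2 CPM per gene. Per the submitters' processing notes STAR, edgeR, limma and mm39 were used; the counting tool is not given in the sources used here. The deposited log2 values are log2((reads + 0.5) / scaled library size), and whole reads were recovered from 100% of them (tolerance 1e-06). Another 15 columns, of raw counts without sample names, were not used. GENCODE M21 gave symbols for 17636 of 17712 genes. Libraries were grouped by the labels' treatment. The log2 values were fitted with limma 3.58.1 in R 4.3.3 (trend, robust, 4 group means, all 15 libraries), with Benjamini-Hochberg adjustment over all genes and a threshold of 0.05; p-values are two-sided. The test was tested on simulated data. Tests planned for raw counts were replaced, because the values are log2 CPM. The members and lists were chosen with earlier results of these data known. Genes were named if called, if of smallest p in a comparison or list, if extreme in level or correlation, or if in a panel of paralogs, stalk and extraribosomal proteins; exceptions are stated. Alternatives covered scaling, low-value filter, voom, replicate block, transcript length, omitted libraries and, added after seeing the data, array quality weights. Depth was 12725316 to 19660511 reads per library. Promoters are from RefSeq (GRCm38.p6); no other coordinates are given, and no protein sequences were used. Values of some single genes are not reported here.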

Additional observations from a re-analysis of the deposited data

Results flagged for a closer look

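Cdkn1a, from the list of ribosome-bound quality control and stress genes, responded differently to DMXAA with and without BO-112. It stood at 0.58 ± 0.14 (log2, SE) for DMXAA against vehicle and at -0.49 ± 0.13 for both agents against BO-112. The interaction was -1.07 ± 0.19 (SE, limma adjusted p = 0.0154), and it was picked out because this test of the difference itself passed the threshold. The 4 libraries with both agents were at 135, 134, 135 and 123 CPM, all below the 4 BO-112 libraries at 183, 198, 168 and 195, and DMXAA 2 had the lowest value of its group. None of the 91 ribosomal protein genes passed this test. A sample far from the other 3 of its group was looked for in 108 combinations of group and value, with 0 found. The rule set the gap to the nearest sample against the range of the group (critical value 0.829). Where 2 of 4 libraries are shifted, as DMXAA 2 and DMXAA 3 were, they can hide each other. The 0 is therefore no evidence that these libraries were like the others.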

How the results depend on the processing

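Counts of called members were 0 in every alternative run for both agents against vehicle, both agents against BO-112 and the interaction, as they were in the fits reported. For BO-112 against vehicle, scaling by total reads alone gave 1 call (15.5% of all genes) and the compared groups alone 1 (24.4%). Leaving out DMXAA 2 and DMXAA 3 gave 3 (25.1%), and array quality weights 3 (28.3%). For BO-112 against DMXAA, where 3 were called, total-read scaling gave 9 (22.4% of all genes) and removing the transcript length trend 1 (20.5%). Leaving out DMXAA 2 and DMXAA 3 gave 1 (10.9%), array quality weights 1 (14.7%) and leaving out the 4 muscle libraries 0 (4.47%). The compared groups alone gave 0, and the share over all genes there is not given here. Leaving out each library in turn gave 0 to 1 calls for BO-112 against vehicle and 0 to 1 for DMXAA against vehicle. It gave 0 to 4 for both agents against DMXAA and 0 to 45 for BO-112 against DMXAA. The shares over all genes at the highest counts are given above with each comparison, and the cause was not tested. Only 2 DMXAA tumours remain without DMXAA 2 and DMXAA 3. With the replicate block 1 member was called for DMXAA against vehicle (1.60% of all genes) and 1 for both agents against DMXAA. For the latter the share over all genes is not given here. No other count of called members moved by over 1.5 times. The deviations of same-numbered libraries had a mean r of 0.015 over 21 pairs, 5 of them over 0.1, against -0.0051 over 63 other pairs, so the numbers were not taken as pairs.

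Array quality weights (DMXAA 2 0.0850, DMXAA 3 0.346) brought the members' median to -0.023 for DMXAA against vehicle, -0.0071 for both agents against DMXAA and -0.067 for BO-112 against DMXAA. With the length trend removed those medians were 0.21, -0.24 and -0.13, and that of BO-112 against vehicle was 0.066, of the other sign. Total-read scaling moved the median of all genes in BO-112 against vehicle to -0.20 and that of the members to -0.25. Rpl6l, Rpl7l1 and Rps4l stayed negative for BO-112 against DMXAA in all 10 other alternatives and all 15 fits without a library, and lost the threshold in 4, 4 and 5 of the former and 3, 2 and 6 of the latter. The edgeR and DESeq2 fits planned for counts were not run. The columns named for libraries hold log2 values, and the reads recovered from them were fitted with limma-voom. No interaction could be had from the compared groups alone. Depth limits Rpl3l, Rpl39l and the other copies of few reads.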

Other observations

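Other genes of the list of ribosome-bound quality control and stress also rose with BO-112. Ascc3, a helicase that takes apart collided ribosomes, rose by 1.25 ± 0.19 (log2, SE, limma adjusted p = 4.38e-04), and Eif2ak2, the double-stranded RNA sensor PKR, by 1.22 ± 0.22 (limma adjusted p = 0.00173). Ddit3, a transcription factor of the integrated stress response, rose by 0.80 ± 0.19 (limma adjusted p = 0.0105) and the ubiquitin ligase Rnf14 by 0.38 ± 0.11 (limma adjusted p = 0.0282). Ascc3 was also higher with both agents than with DMXAA, by 0.81 ± 0.17 (limma adjusted p = 0.0414). Among the 7 oxidative phosphorylation genes lower with BO-112 than with DMXAA were Ndufa5, a subunit of complex I, -1.16 ± 0.36 (SE, limma adjusted p = 0.0350), and Uqcr11, a subunit of complex III, -1.10 ± 0.33 (SE, limma adjusted p = 0.0327). These 6 genes were named after their values were seen.

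Processed pseudogenes, which are copies of spliced transcripts, set BO-112 2 and BO-112 3 apart. Their median log2 difference from the mean of the other 14 libraries was -0.94 and -0.73 there, -0.35 in BO-112 1 and 0.33 in BO-112 4. DMXAA 2 and DMXAA 3 had 0.45 and 0.64, and the remaining 9 libraries -0.12 to 0.31. The 115 ribosomal protein pseudogenes together had 121 and 145 CPM in BO-112 2 and BO-112 3, which is 0.253% and 0.269% of the CPM of the 91 genes, against 0.379 to 0.581% in the other 13. In contrast the 67 unprocessed pseudogenes had a median difference of -0.017 between BO-112 2 and BO-112 3 and the other BO-112 libraries, and 514 long intergenic RNAs 0.12.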
